A study of Mus musculus with 5 samples.

Results

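The 8 genes described here encode the DNA methyltransferase and TET proteins of the mouse, with the partners DNMT3L and UHRF1: Dnmt1, Uhrf1, Dnmt3a, Dnmt3b, Dnmt3l, Tet1, Tet2 and Tet3. They were taken by name, and each was examined over its annotated body and the 2 kb on either side for peaks of 3 deposited chromatin immunoprecipitation and sequencing (ChIP-seq) lists. All 8 were found in the RefSeq annotation of GRCm38.p6, the assembly known as mm10, which holds 21631 protein-coding genes on chromosomes 1 to 19 and X. Of the 54793 peaks of the 3 lists, 45 fell in these 8 windows. The lists are H2AK119ub in DDX5-/- embryonic stem cells, H2AK119ub in wild-type (WT) embryonic stem cells, and RYBP in the same WT cells, with 1 library each. The knockout was a monoclonal derivative of the line MPI-II, edited with paired guides and a Cas9 nickase in exon 2 of Ddx5, and it is thus a single clone. Both genotypes grew on feeder cells in serum with leukemia inhibitory factor at 1000 U/ml, the MEK inhibitor PD0325901 at 1 µM and a GSK3 inhibitor at 3 µM, and were taken at passages 13 to 18. RYBP was precipitated with an antibody sold under the alias DEDAF. With 1 library per group there is no replicate check and no p-value for any difference. These lists hold no expression values, and neither the loss of Ddx5 nor the cell type could be checked from them.

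DNA methylation in mammals sits mainly on the cytosine of CG dinucleotides. DNMT1 copies it onto the new strand after replication, guided by UHRF1, whereas DNMT3A and DNMT3B set it on unmethylated DNA, with DNMT3L as a cofactor that has no catalytic activity of its own. The TET dioxygenases oxidise methylcytosine, the first step towards its removal. H2AK119ub is the ubiquitin mark that Polycomb repressive complex 1 (PRC1) places on histone H2A, and RYBP belongs to variant PRC1 complexes, which gather at CG-rich promoters with little DNA methylation. Embryonic stem cells are known to express Dnmt1, Uhrf1, Tet1 and Tet2 strongly, and Tet3 little. Inhibition of MEK and GSK3 is known to lower the expression of Dnmt3a, Dnmt3b and Dnmt3l in such cells.

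The 250 bases before 5 of the annotated starts are shown because the results turn on what lies around them. They are written 5′ to 3′ in lower case with each CG dinucleotide in capitals, and they come from RefSeq (GRCm38.p6). The starts of Dnmt3b and Tet3 lay inside RYBP peaks. H2AK119ub lay on both sides of the Dnmt3b start in both genotypes, and of the Tet3 start in WT cells. In DDX5-/- cells an H2AK119ub peak covered the Tet3 start. The internal start of Dnmt3a had H2AK119ub in WT cells alone. The first start of Dnmt3l had H2AK119ub without RYBP, and the start of Tet1 had no peak nearby.
Dnmt3b, chr2:153649199-153649448, plus strand: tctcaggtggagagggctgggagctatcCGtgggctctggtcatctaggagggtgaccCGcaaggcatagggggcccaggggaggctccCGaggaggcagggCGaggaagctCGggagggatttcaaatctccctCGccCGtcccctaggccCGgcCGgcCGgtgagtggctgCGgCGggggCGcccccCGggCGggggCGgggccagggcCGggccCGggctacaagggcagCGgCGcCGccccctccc
Tet3, chr6:83441679-83441928, minus strand: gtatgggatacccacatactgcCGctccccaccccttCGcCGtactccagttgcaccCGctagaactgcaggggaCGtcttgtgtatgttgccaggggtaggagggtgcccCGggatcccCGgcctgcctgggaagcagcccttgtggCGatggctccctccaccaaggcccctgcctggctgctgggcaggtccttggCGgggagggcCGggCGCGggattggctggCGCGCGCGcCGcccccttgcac
Dnmt3a, internal start, chr12:3891494-3891743, plus strand: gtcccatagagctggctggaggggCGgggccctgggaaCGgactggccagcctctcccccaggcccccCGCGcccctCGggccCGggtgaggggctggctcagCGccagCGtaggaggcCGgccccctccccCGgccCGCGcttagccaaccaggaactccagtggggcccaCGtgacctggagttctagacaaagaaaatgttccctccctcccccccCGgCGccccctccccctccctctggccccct
Dnmt3l, first start, chr10:78042037-78042286, plus strand: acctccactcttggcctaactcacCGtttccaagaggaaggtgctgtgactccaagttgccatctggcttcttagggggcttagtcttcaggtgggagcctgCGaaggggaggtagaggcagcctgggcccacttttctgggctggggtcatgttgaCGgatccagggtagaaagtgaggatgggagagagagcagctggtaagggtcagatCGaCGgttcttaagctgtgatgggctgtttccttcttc
Tet1, chr10:62887325-62887574, minus strand: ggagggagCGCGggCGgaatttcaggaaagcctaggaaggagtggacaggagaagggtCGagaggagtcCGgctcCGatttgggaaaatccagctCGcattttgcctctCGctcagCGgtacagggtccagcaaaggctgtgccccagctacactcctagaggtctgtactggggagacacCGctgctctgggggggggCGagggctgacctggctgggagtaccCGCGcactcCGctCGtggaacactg
The Dnmt3b stretch holds 21 CG dinucleotides, Tet3 17, Dnmt3a 15 and Tet1 15, against 5 in the Dnmt3l stretch.

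The 8 genes fell into 3 kinds. Dnmt1, Uhrf1, Tet1 and Tet2, which make up the maintenance pair and the TET genes other than Tet3, had no peak in any list. Dnmt3b, Dnmt3l and Tet3 carried H2AK119ub in both genotypes, and Dnmt3a carried it in WT cells alone. H2AK119ub was thus called at 3 of 8 genes in DDX5-/- cells, where 23.6% of all protein-coding genes had it in the same kind of window, and at 4 of 8 in WT cells, where 27.9% had it. RYBP was called at 3 of 8 genes, Dnmt3a, Dnmt3b and Tet3, beside 37.6% of all genes. No member was marked in the knockout alone (3.00% of all genes), 1 was marked in WT cells alone (7.20%) and 4 had no H2AK119ub in either genotype (69.2%). These 4 were also without RYBP, and so were in no list, like 52.8% of all genes. Dnmt3b and Tet3 had peaks in all 3 lists, as did 15.7% of all genes. The counts are a description of 8 genes in 3 libraries, and no test was made of them. The member windows ran from 24150 to 116885 bp with a median of 71071.5 bp, against a median of 21329 bp over all protein-coding genes. A longer window has more room for a peak, and this length difference was not allowed for.

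**Figure D1:**
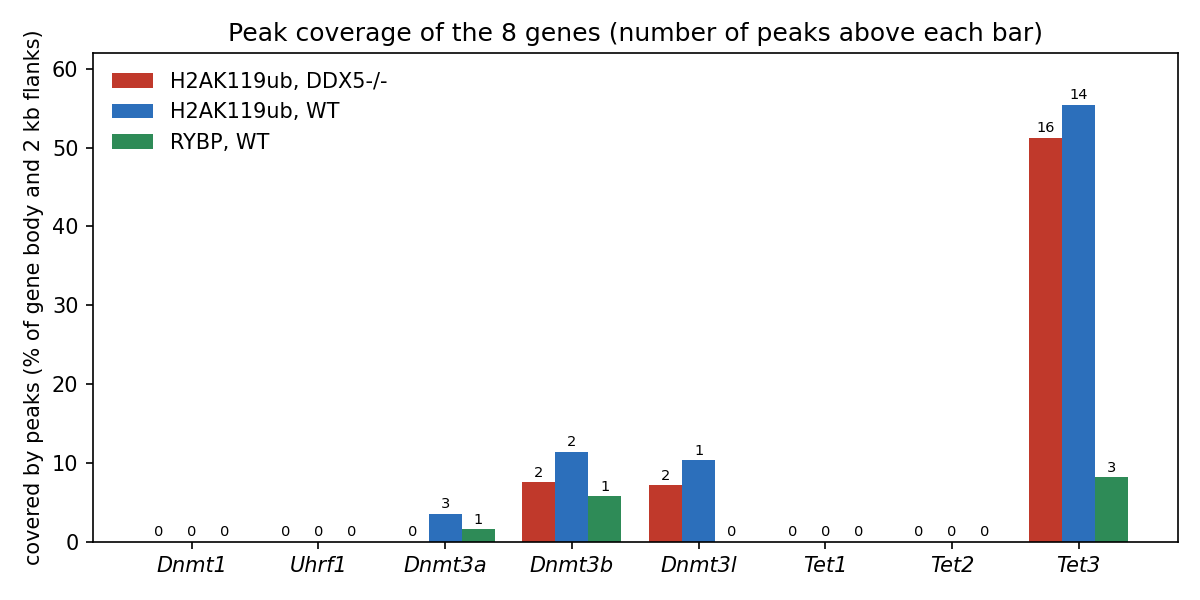
Share of each gene's body and 2 kb flanks covered by peaks, in percent, for H2AK119ub in DDX5-/- cells, H2AK119ub in WT cells and RYBP in WT cells, with the number of peaks above each bar and 1 library per bar. Tet3 stands at 51.3% and 55.5% for H2AK119ub in DDX5-/- and WT cells, and 4 of the 8 genes have no peak.

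The maintenance genes had no H2AK119ub peak called in their windows. Distances to the nearest peak are given as a description, since the same distances were not taken for all genes. Dnmt1 (gene ID 13433, chromosome 9, 20907206 to 20959888, minus strand) encodes the maintenance methyltransferase. Its nearest H2AK119ub peak was 72.1 kb away in DDX5-/- cells and 36.7 kb away in WT cells. The nearest RYBP peak, 2537 bp wide and 15.1 kb away, lay at S1pr2, a sphingosine phosphate receptor gene. Uhrf1 (gene ID 18140, chromosome 17, 56303337 to 56323486, plus strand) encodes the protein that reads hemimethylated CG sites and brings DNMT1 to them. Its nearest H2AK119ub peak was 100.6 kb away in DDX5-/- cells and 63.7 kb away in WT cells. A RYBP peak of 1180 bp began 2093 bp beyond the 3′ end of Uhrf1, just outside the window, and lay at the neighbouring gene Kdm4b, which encodes a histone demethylase.

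Dnmt3b (gene ID 13436, chromosome 2, 153649411 to 153687730, plus strand), the de novo methyltransferase most tied to early development, had all its peaks around the promoter. H2AK119ub covered 3194 bp in DDX5-/- cells and 4834 bp in WT cells, a ratio of 0.66, where chromosome 2 as a whole had a ratio of 0.61. The measures differ, since a chromosome ratio takes every peak, also those in a single genotype, and a gene ratio is given only for genes marked in both. In DDX5-/- cells the peaks ran from 153648298 to 153649252 (955 bp) and from 153649661 to 153651899 (2239 bp). In WT cells they ran from 153647606 to 153649314 (1709 bp) and from 153649711 to 153652835 (3125 bp). Both genotypes thus had a peak on each side of the annotated start at 153649449 and none over it. The gap was 408 bp wide in DDX5-/- cells and 396 bp in WT cells. The inner edges of the gap differed by 62 and 50 bp between genotypes, whereas the outer edges of the 2 peaks lay closer to the start in the knockout, by 692 bp upstream and 936 bp downstream. Nearly all of the knockout coverage, 98.4%, fell where WT cells were covered too. RYBP had 1 peak of 2451 bp in WT cells, from 153648174 to 153650624, which spanned the gap and the start, and 2055 bp of it lay within WT H2AK119ub peaks.

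Dnmt3l (gene ID 54427, chromosome 10, 78042287 to 78063622, plus strand) encodes the cofactor of the de novo enzymes, which is prominent in germ cells and early embryos. H2AK119ub covered 1827 bp in 2 peaks in DDX5-/- cells and 2624 bp in 1 peak in WT cells. The ratio was 0.70, beside 0.52 for all peaks of chromosome 10, which include those in a single genotype. The WT peak ran from 78040923 to 78043546 over the first annotated start. The knockout peak there ran from 78042079 to 78043343, 1265 bp wide, and lay wholly inside it, so that it covered 48.2% of the WT length. The other knockout peak, from 78046088 to 78046649, had no WT counterpart. It was 562 bp wide, and 4.1% of knockout peaks were narrower. Counted without the flanks, the gene body held 1619 bp in DDX5-/- cells and 1260 bp in WT cells, so the direction at Dnmt3l depends on the window. The beginning of Dnmt3l overlaps that of Aire, a gene on the minus strand with its start at 78043610 that encodes a regulator of antigen expression in the thymus, and the peaks over the first start of Dnmt3l lie in both genes. No RYBP peak lay in the window, and the nearest was 63.0 kb away, at Cfap410.

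Dnmt3a (gene ID 13435, chromosome 12, 3801559 to 3914443, plus strand), the other catalytic de novo enzyme, had no H2AK119ub peak in DDX5-/- cells over 116885 bp, and 3 peaks with 4211 bp in WT cells. The nearest knockout peak lay 31.6 kb beyond the 3′ end and was 571 bp wide. The WT peaks ran from 3834391 to 3835719 (1329 bp), from 3891844 to 3893700 (1857 bp) and from 3896341 to 3897365 (1025 bp). The middle peak began 100 bp downstream of the internal annotated start at 3891744, while the 2 listed starts upstream of it, at 3806980 and 3807160, had no peak of either mark within 2 kb. The annotated gene begins further upstream, at 3801559, where no start is listed. In mouse embryonic stem cells a short form of DNMT3A made from an internal promoter is known to be the main one, but the annotation used here does not tie starts to isoforms. The middle peak also overlaps Gm31623, a long noncoding RNA gene. RYBP had 1 peak of 1894 bp inside the gene, from 3870645 to 3872538, which lay 19206 bp upstream of the internal start and touched no H2AK119ub peak.

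Loss of a call at peaks of this width was common. Of WT H2AK119ub peaks 1 to 2 kb wide, 43.4% overlapped a knockout peak, and on chromosome 12 the share was 44.7% of 436. Of WT peaks at least 4 kb wide, 96.6% did. Among all protein-coding genes marked in WT cells, 74.1% were also marked in DDX5-/- cells. By covered length Dnmt3a stood high among the 1558 genes marked in WT cells alone. Their median was 1277.5 bp, and 67 of them, Dnmt3a included, had at least its 4211 bp. That order does not allow for gene length. The Dnmt3a window of 116885 bp was the longest of the members, and 3.6% of it was covered. Among all protein-coding genes its WT rank was 2416th by covered length and 4769th by share of the window, an order that favours short genes. The DDX5-/- list held 20994 peaks over 30.6 Mb with a median width of 1083 bp, and the WT list 24235 peaks over 45.9 Mb with a median of 1360 bp. Whether a lower depth or enrichment of the knockout library accounts for the missing peaks at Dnmt3a cannot be told apart from a difference in the cells.

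**Figure D2:**
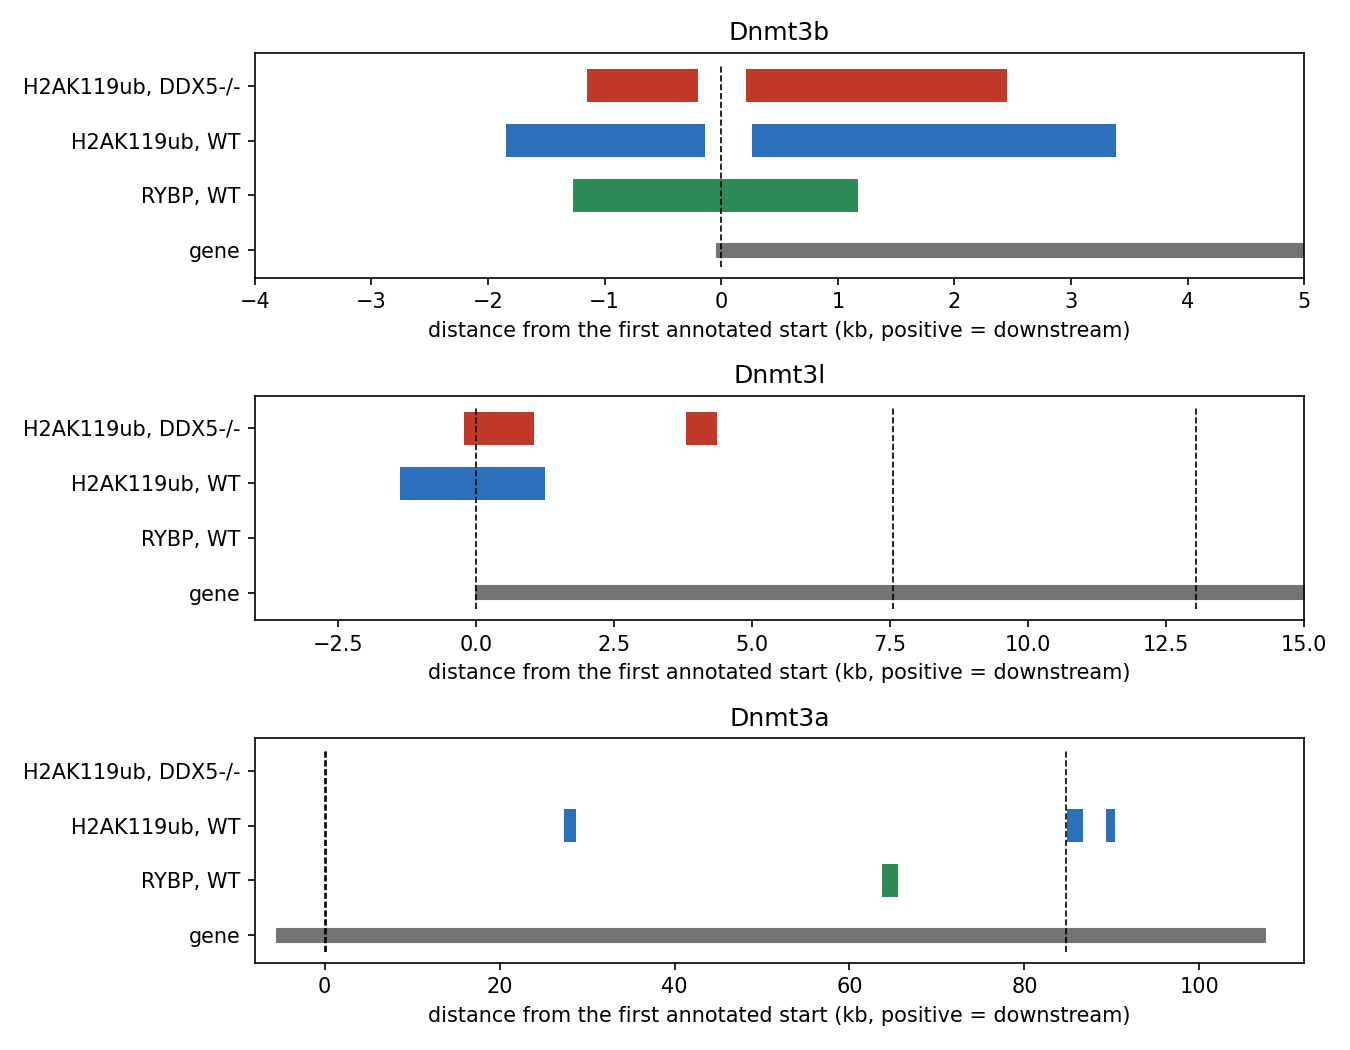
Peaks at Dnmt3b, Dnmt3l and Dnmt3a against the distance from the first annotated start in kb, with H2AK119ub in DDX5-/- cells above H2AK119ub in WT cells and RYBP in WT cells, 1 library each. Dashed lines are annotated starts and the grey bar is the gene. At Dnmt3b the RYBP peak spans the gap between 2 H2AK119ub peaks in both genotypes, and at Dnmt3a the 3 WT peaks have no knockout counterpart.

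Among the TET genes, Tet1 and Tet2, the main TET enzymes of embryonic stem cells, had no peak called in their windows. Their distances to the nearest peak likewise have no value for all genes beside them. For Tet1 (gene ID 52463, chromosome 10, 62804570 to 62887469, minus strand) the nearest H2AK119ub peak was 202.6 kb away in DDX5-/- cells and 202.4 kb away in WT cells, and the nearest RYBP peak 77.9 kb away, at Stox1. For Tet2 (gene ID 214133, chromosome 3, 133463677 to 133545136, minus strand) these distances were 514.8 kb in DDX5-/- cells and 692.0 kb in WT cells for H2AK119ub, and 152.5 kb for RYBP. The nearest WT H2AK119ub peak to Tet2, 852 bp wide, lay at Cxxc4, whose product binds CG-rich DNA and is known to bring about the loss of TET2 protein.

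Tet3 (gene ID 194388, chromosome 6, 83362373 to 83457208, minus strand), the TET enzyme known from the oocyte, the zygote and the nervous system, was the opposite case. H2AK119ub covered 50655 bp in 16 peaks in DDX5-/- cells and 54807 bp in 14 peaks in WT cells, out of a window of 98836 bp. By covered length Tet3 ranked 23rd of the 21631 protein-coding genes in DDX5-/- cells and 39th in WT cells. As a share of the window, its 51.3% and 55.5% ranked 530th in DDX5-/- cells and 830th in WT cells. Covered length favours long genes, whereas the share favours short ones. A short window can be filled by 1 peak, as at the gene Gadd45g, whose 5801 bp were all covered in WT cells. RYBP had 3 peaks over Tet3, and 1.45% of all genes had at least as many, a count that does not allow for gene length. These RYBP peaks covered 8087 bp, which ranked 80th by covered length but 3128th by share of the window. Of the 8087 bp, 7044 bp lay within knockout H2AK119ub peaks and 6926 bp within WT ones.

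The peaks at Tet3 gathered around the promoter and the first part of the gene. From the annotated start at 83441678 upstream to the edge of the window, which holds a 5′ extension of the annotated gene and the long noncoding RNA gene B230319C09Rik, H2AK119ub covered 97.5% of the sequence in DDX5-/- cells and 93.6% in WT cells. Over the first 20 kb downstream of the start it covered 75.2% in DDX5-/- cells and 75.4% in WT cells, and over the next 20 kb 66.9% and 74.9%. From 40 to 60 kb downstream coverage dropped to 7.4% in DDX5-/- cells and to 0 in WT cells. From 60 to 80 kb, towards the 3′ end, it was 18.3% in DDX5-/- cells and 35.1% in WT cells. The share under called peaks was thus similar in both genotypes from the upstream edge to 20 kb downstream, and lower in the knockout at the 3′ end. Within 2 kb of the start, peaks covered 3054 bp in DDX5-/- cells and 2492 bp in WT cells. The lists give positions alone, so these shares do not measure the amount of the mark.

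Knockout peaks at Tet3 were 1275 to 8447 bp wide with a median of 2645.5 bp, and WT peaks 1036 to 16309 bp with a median of 3266.5 bp. The widest WT peak, from 83413070 to 83429378, was wider than 99.8% of its list. In DDX5-/- cells the same stretch held parts of 4 peaks, of which the widest, from 83418178 to 83425469, measured 7292 bp. Of the 16 knockout peaks, 13 overlapped a WT peak, and of the 14 WT peaks, 10 overlapped a knockout peak. In base pairs, 41864 were covered in both genotypes, 8791 in the knockout alone and 12943 in WT cells alone, so that 76.4% of the WT length was covered in the knockout. Where peaks up to 2 kb apart were joined, the domain at the promoter spanned 28813 bp in DDX5-/- cells, from 83432289 to 83461101, and 28909 bp in WT cells, from 83433458 to 83462366. These ranked 54th by span of 12367 joined domains in DDX5-/- cells and 107th of 14117 in WT cells.

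**Figure D3:**
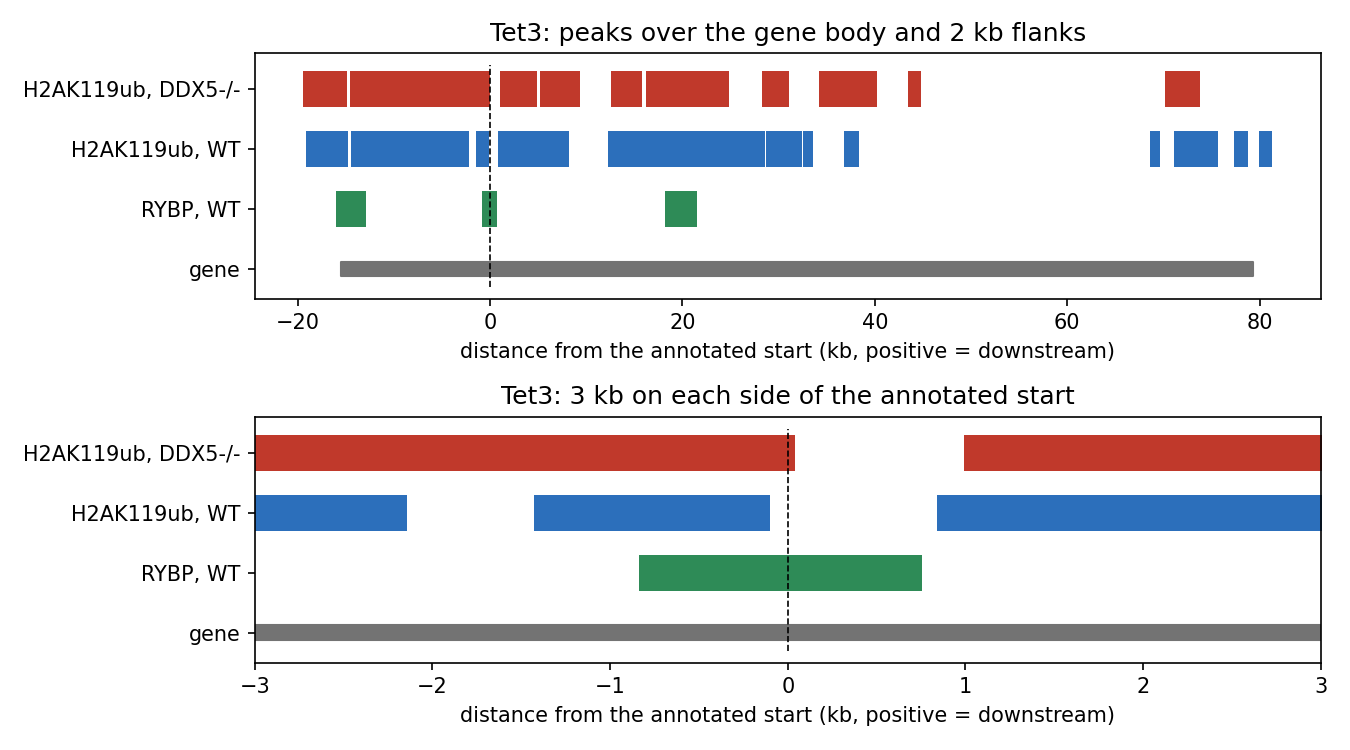
Peaks at Tet3 against the distance from its annotated start in kb, with H2AK119ub in DDX5-/- cells above H2AK119ub in WT cells and RYBP in WT cells, 1 library each. The upper panel shows the gene body and 2 kb flanks, the lower panel 3 kb on each side of the start, where the RYBP peak lies over a break in H2AK119ub. The dashed line is the annotated start and the grey bar the gene.

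The covered length at Tet3 is given here beside that of its chromosome. The ratio of covered length of knockout to WT was 0.92 at Tet3, where all of chromosome 6 had 1.36 and the part from 80 to 90 Mb, without Tet3, had 1.33. Over 500 kb on each side of the Tet3 window, with Tet3 left out, it was 1.09. Of the 272 protein-coding genes of chromosome 6 marked in both genotypes, 29.4% had less covered length in the knockout, and the median gene had a ratio of 1.16 (quartiles 0.97 and 1.55). Over all chromosomes, 78.6% of 4467 genes marked in both had less in the knockout, with a median ratio of 0.72 (quartiles 0.49 and 0.96). The ratio of Tet3 was thus below the lower quartile of its chromosome and inside the quartiles of the genome, while Dnmt3b at 0.66 and Dnmt3l at 0.70 lay near the median of the genome. Why chromosome 6 differs, and what part this has in the value at Tet3, was not tested.

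**Figure D4:**
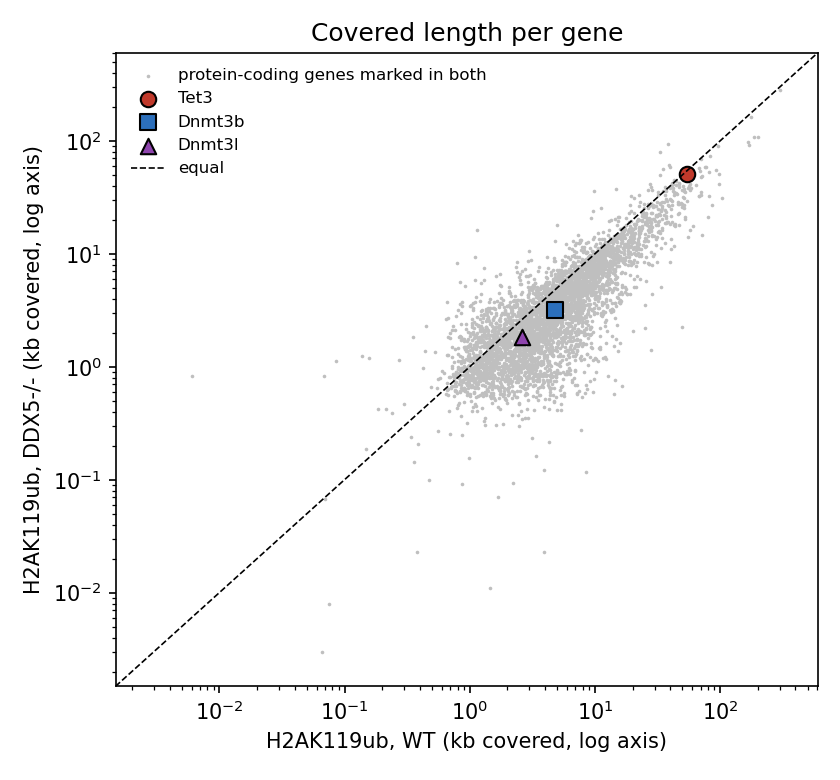
Length covered by H2AK119ub in the body and 2 kb flanks of each protein-coding gene marked in both genotypes, in kb on log axes, in DDX5-/- cells (vertical) against WT cells (horizontal), with 1 library each. The dashed line marks equal values. Tet3, Dnmt3b and Dnmt3l lie below it, with ratios of 0.92, 0.66 and 0.70, and Dnmt3a, with no knockout peak, has no place on these axes.

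RYBP and H2AK119ub met in a like way at the starts of Dnmt3b and Tet3 in WT cells. Of the 15 annotated starts of the 8 genes, 2 lay inside an H2AK119ub peak in DDX5-/- cells, those of Tet3 and the first of Dnmt3l, and 1 in WT cells, the first of Dnmt3l, beside 5.90% and 7.79% of 21045 starts of protein-coding genes. The starts of Dnmt3b and Tet3 lay inside a RYBP peak, like 28.4% of all starts, and no other member start had RYBP within 2 kb, where 31.4% of all starts did. H2AK119ub lay within 2 kb of 16.1% of all starts in DDX5-/- cells and of 19.5% in WT cells. Of the 15 member starts, 3 had it in DDX5-/- cells and 4 in WT cells. At Tet3 the RYBP peak from 83440920 to 83442514, 1595 bp wide, contained the start. In WT cells the start lay in a gap of 939 bp between H2AK119ub peaks that ended 101 bp upstream and began 839 bp downstream. In DDX5-/- cells the upstream peak reached past the start to 83441635, and the next peak downstream began 991 bp away. The start of Dnmt3b lay in such a gap in both genotypes, as given above. Over all annotated starts inside a RYBP peak with H2AK119ub within 2 kb, 36.5% of 2139 lay inside an H2AK119ub peak in DDX5-/- cells and 38.2% of 2431 in WT cells, while 407 starts (19.0%) in DDX5-/- cells and 496 (20.4%) in WT cells lay in a gap with a peak within 2 kb on each side. The arrangement is thus shared with many other starts. A further RYBP peak of Tet3, from 83454526 to 83457745 and 3220 bp wide, ran over the annotated 5′ end of the gene at 83457208. That 5′ end lay inside an H2AK119ub peak in both genotypes, not in a gap. The RYBP peak also spanned a break in H2AK119ub, between 83456211 and 83456540 in DDX5-/- cells and between 83456138 and 83456441 in WT cells. Breaks also occurred without RYBP, as between 83425469 and 83425856 in DDX5-/- cells. The remaining RYBP peak, from 83420195 to 83423466, lay inside the gene and inside the widest WT peak.

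CG content varied widely among the member promoters, both with and without peaks. The RefSeq promoter windows used here list 15 starts for the 8 genes. None lies at the annotated 5′ end of Tet3 (83457208) or of Dnmt3a (3801559), so CG content there was not counted. CG dinucleotides were counted in the 300 bases from 250 before to 50 after each listed start. The median over 21045 such windows of protein-coding genes was 13. Windows with RYBP within 2 kb had a median of 24, against 7 for those without. Those with H2AK119ub within 2 kb had a median of 19 in DDX5-/- cells, against 12 without, and of 18 in WT cells, against 11 without. Among the 4 starts with a peak within 2 kb, Dnmt3b had 30, Tet3 22 and the internal start of Dnmt3a 18, all above the median of all windows, and the first start of Dnmt3l, which had H2AK119ub in both genotypes, had 6. The peaks at that Dnmt3l start also lie in Aire, and which Dnmt3l start these cells use was not tested. Of the 11 starts without a peak, 5 lay below the median, with 2 and 12 at Dnmt1, 12 at Uhrf1, and 4 and 3 at Dnmt3l, and 6 lay above it. The CG-richest member was Tet2 with 57, more than 99.8% of all windows, and it had no peak of either kind. Tet1 had 17. The 2 upstream starts listed for Dnmt3a had 46 and 47 and the most CG-rich starts of Dnmt1 and Uhrf1 33 each, also with no peak.

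**Figure D5:**
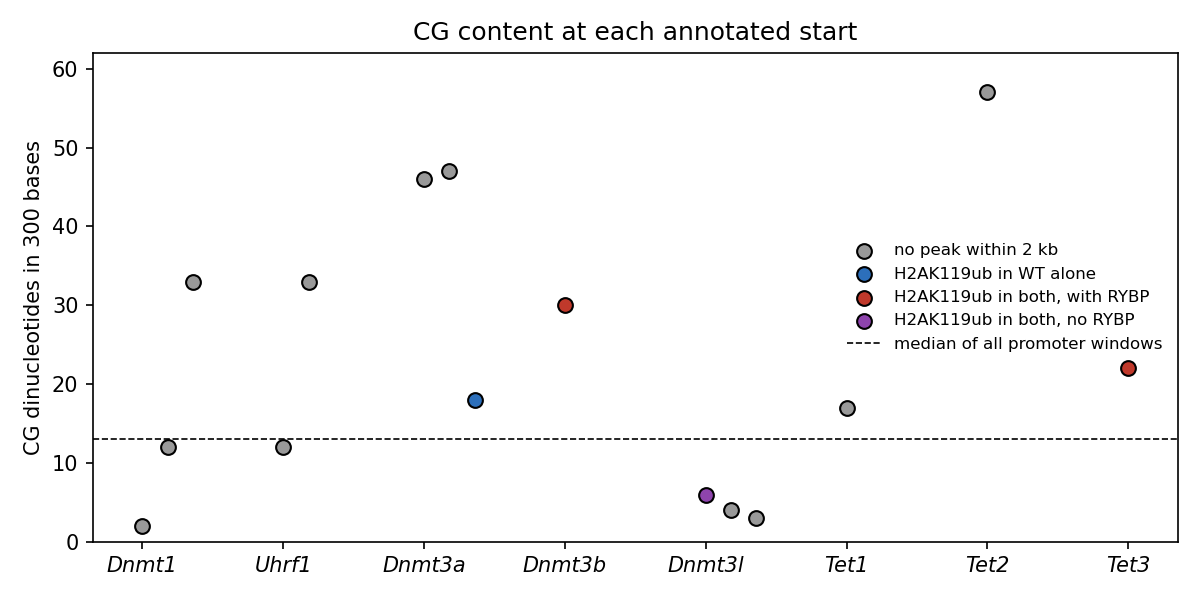
Number of CG dinucleotides in the 300 bases around each of 15 annotated starts, by gene, coloured by the peaks within 2 kb of the start. The dashed line is the median of all protein-coding promoter windows, 13. Tet2 at 57 has no peak, Dnmt3b at 30 and Tet3 at 22 have all 3 peak types, and Dnmt3l at 6 has H2AK119ub without RYBP.

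A pair of motifs was searched in the same windows on both strands: CACGTG, the E-box bound by the MAX partners of a variant PRC1 complex, and GCGGGAA, a core of E2F sites. Each was counted alone, and no member window held both. CACGTG occurred once at the internal start of Dnmt3a, where it can be seen in the stretch above as caCGtg, and once at the second start of Dnmt3l, beside 7.91% of all windows. GCGGGAA occurred once at the first start of Uhrf1, beside 6.02% of all windows.

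Of 58 other genes of the DNA methylation pathway, covering readers, base excision repair, CG-binding proteins and partners of the enzymes, 57 were matched to the annotation. H2AK119ub was called at 7 of the 57 in DDX5-/- cells (12.3%) and at 14 in WT cells (24.6%). All 7 of the knockout genes were marked in WT cells too, and 7 were marked in WT cells alone. RYBP was called at 22 (38.6%), and at 13 of these with no H2AK119ub in either genotype, or 22.8% of the list beside 16.4% of all protein-coding genes. No peak in any list was found at 30 genes (52.6%). Beside all protein-coding genes, the list had a lower share marked in the knockout (12.3% against 23.6%) and in both genotypes (12.3% against 20.7%), a higher share marked in WT cells alone (12.3% against 7.20%), and 0 genes marked in the knockout alone, against 3.00%. None of these differences was tested. The shares marked in WT cells (24.6% against 27.9%), with RYBP (38.6% against 37.6%) and in no list (52.6% against 52.8%) lay closer together.

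Those with the most WT coverage among genes marked in WT cells alone were Ehmt2 with 9706 bp, Cxxc1 with 3295 bp, Mbd3 with 3009 bp and Dppa3 with 1448 bp. Ehmt2 encodes the histone H3 methyltransferase G9a, Cxxc1 a CG-binding subunit of histone methyltransferase complexes, Mbd3 a subunit of the NuRD complex, and Dppa3 a protein that keeps UHRF1 off chromatin. Ehmt2 had 5 WT peaks and none in the knockout. Among those marked in both, Smug1, a uracil glycosylase gene, had 1315 bp in DDX5-/- cells and 6183 bp in WT cells. Gadd45g, of the stress-response family linked to demethylation, had 5525 and 5801 bp in the same order of genotypes, with 3830 bp of RYBP. Kdm2b, whose product brings variant PRC1 to CG-rich DNA, had 3922 bp in DDX5-/- cells and 4993 bp in WT cells, with 3 RYBP peaks. Zbtb4, a methyl-CG reader gene, had 3698 bp in DDX5-/- cells and 3578 bp in WT cells. Of the 7 genes marked in both, 5 had less in the knockout and 2 more, with a median ratio of 0.79. Among all protein-coding genes marked in both, 78.6% had less in the knockout, with a median ratio of 0.72. RYBP without H2AK119ub was widest at Mat2a (2886 bp), which encodes the enzyme that makes the methyl donor, and at Uhrf2 (1996 bp), Trim28 (1957 bp) and Nsd1 (1931 bp). Uhrf2, the paralog of Uhrf1, thus had RYBP where Uhrf1 had none inside its window.

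For the members with peaks in all 3 lists, the genes with the most similar covered lengths over the 3 libraries were looked up among genes whose windows were at least 0.8 times as long and longer by no more than the inverse of that factor. Nearest to Dnmt3b, among 2345 genes, were Zfp541, with 3046 bp of H2AK119ub in DDX5-/- cells, 4641 bp in WT cells and 2154 bp of RYBP, and Clic6, with 3933, 4798 and 2063 bp in that order. Nearest to Tet3, among 1375 genes, were Shisal1, with 51513, 51314 and 1237 bp, and Pax7, with 41147, 57268 and 10593 bp. The distance, the root of the summed squared differences, was 384 bp for Zfp541 and 835 bp for Clic6, but 7737 bp for Shisal1 and 10136 bp for Pax7, so the genes nearest to Tet3 still differed from it by several kb.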

How the data were processed

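The authors deposited 3 peak lists, 1 per library, whose columns give chromosome, start and end, and the deposited score is 0 throughout, which leaves positions alone to work with. Bowtie2 2.2.5, MACS 1.4 and build mm10 are named in the submitters' processing notes. What each tool did, its threshold and any control stand as not given in the sources used here, and the 2 input libraries were not used. Read depth is unknown.

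Starts were converted to positions counted from 1. Peaks were assigned to a gene when at least 1 bp lay in its body or 2 kb flanks, and covered length is the number of bases of that window under peaks. RefSeq (GRCm38.p6) gave gene extents, and starts, strand and sequences from RefSeq promoter windows, which hold all 8 genes. These windows list 21045 starts for 21631 protein-coding genes, so some genes have none. Shares of all starts refer to the listed ones. Computation used Python 3.11.15 and was tested on simulated peaks.

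The members and lists were chosen with earlier results of these data known. Named besides the members are genes that share a member's peaks, up to 4 related genes per class by covered length, and the 2 genes nearest in covered length. The genes at nearest peaks and of the motif search were added after values were seen. The alternatives were a 50% overlap, no flank, a 5 kb flank, windows of 2 kb around starts, a minimum peak width of 1 kb, H2AK119ub lists cut to their widest peaks at equal number, and merging of peaks within 2 kb.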

Additional observations from a re-analysis of the deposited data

How the results depend on the processing

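Under the 7 alternatives, 93 of 98 counts of genes stayed within 1.5 times the reported value, and all counts over the 8 members did. The RYBP count of the members was 4 with 5 kb flanks, where Kdm4b's peak enters the window of Uhrf1, and 2 around annotated starts, where the peak inside Dnmt3a drops out. With windows of 2 kb around annotated starts, the related genes marked in the knockout were 3, those marked in WT cells 8 and those marked in both 3. In this setting any gene without a listed start was given windows around both of its annotated ends. With a minimum width of 1 kb, 1 related gene was marked in the knockout alone, as was 1 when H2AK119ub lists of equal size were compared. This gene was Cxxc4, marked in both genotypes in the main count, whose only WT peak of 852 bp was removed by these cuts. The direction turned at Dnmt3l with the gene body alone (log2 ratio of knockout to WT 0.36, against -0.52) and at Tet3 around its annotated start (0.29, against -0.11). For Dnmt3b the log2 ratio lay between -1.11 with peaks of at least 1 kb, where its 955 bp knockout peak drops out, and -0.33 around the start. Unknown depth limits each absence of a peak to what was not called. No paired analysis was possible because each group had 1 library.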
